A study of Mus musculus with 6 samples.

Results

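Regulatory T cells of mouse pancreatic tumours were followed here by the RNA of single cells. Of 39928 cells that passed the quality limits in 6 tumours, 271 met a rule on unique molecular identifier (UMI) counts, a UMI being the tag that marks 1 captured RNA molecule. A cell had to carry at least 2 UMIs of the T cell receptor complex genes Cd3d, Cd3e, Cd3g and Trac together. It also had to carry at least 1 UMI of Foxp3, the lineage-defining transcription factor, or at least 4 of Ikzf2, Ctla4, Tnfrsf4 and Il2ra together, called the helper genes below. Cells with any UMI of Cd8a, Cd8b1, Trdc, Tcrg-C1 or Epcam, or with more than 1 of the complement genes C1qa, C1qb and C1qc, were not taken. The cells were thus chosen by their measured UMI counts of these 17 genes, whose levels are given as a description only.

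The tumours came from KPC mice, which carry p53LSL.R172H/+ and Pdx1-Cretg/+ among their alleles. The Pdx1 promoter drives Cre in the pancreas, so the tumour cells carry the recombined alleles and the T cells are the host's own. In the treated group, 3 mice received trametinib, an inhibitor of the kinase MEK, at 1 mg/kg by mouth, together with hydroxychloroquine, which blocks lysosomal degradation and so autophagy, at 40 mg/kg by mouth. In the vehicle group, 3 mice received corn oil and water. All mice entered once a tumour of 4 to 7 mm was seen by ultrasound, and tumours were dissociated and made into 10x Genomics droplet libraries 24 h after treatment, 1 library per mouse. The labels do not give the animals' ages. The p-values below measure the spread between these 6 mice. Where cells of the same mouse are compared, they measure the spread of the differences within mice. Fits that leave a mouse out rest on fewer mice.

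Regulatory T cells are CD4 T cells that restrain other immune cells. Foxp3 holds their identity, Ctla4 strips co-stimulatory ligands from antigen-presenting cells, Il2ra is the high-affinity chain of the interleukin 2 receptor, and Tnfrsf4 and Tnfrsf18 (OX40 and GITR) are co-stimulatory receptors that they carry at high levels. They are a recurrent part of the T cell infiltrate of pancreatic tumours.

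Libraries differed in depth and in 1 technical respect. Cells passing the limits had a median of 8482 to 11335 UMIs in treated tumours, against 3222 to 4662 in vehicle tumours. The gated cells had a median of 4110.5, 4587 and 3685 UMIs in treated 1, 2 and 3, against 1782, 1772 and 1764 in vehicle 1, 2 and 3. Vehicle 1 stood apart in its cell barcodes, and only 12.5% to 26.3% of its cells shared the first 7 bases of their barcode with a cell of another library, against at least 99.8% among the other 5. Between pairs of libraries 0 to 22 barcodes of cells passing the limits were shared, and no barcode of a gated cell was. Depth and treatment cannot be told apart in these libraries.

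The gated cells numbered 30, 41 and 118 in treated 1, 2 and 3, against 11, 40 and 31 in vehicle 1, 2 and 3, and they carried 1359397 UMIs in all. Foxp3 (chromosome X, 7573644 to 7595245, plus strand, mm10) was found in 142 of them (52.4%), and the other 129 (47.6%) entered through the helper genes. Foxp3 UMIs were found in 16, 19 and 71 gated cells of treated 1, 2 and 3, and in 7, 14 and 15 of vehicle 1, 2 and 3. Its level was 193, 96.3 and 253 CPM (a gene's UMIs scaled to 1000000 UMIs of the gated cells of a mouse) in treated mice, against 341, 176 and 240 CPM in vehicle mice. The groups overlapped, with the highest value in vehicle 1, whose level rests on 12 UMIs.

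Foxp3 was rare in cells of other types that had no UMI of Cd3d, Cd3e, Cd3g or Trac. Cells of other types with such UMIs were left out of this count, so its shares were in part set by that limit. Foxp3 was found in 6 of 8059 keratin-positive epithelial cells (0.0745%), at median depths of 13053 to 31368 UMIs by mouse. Among macrophages it was found in 0 of 7154, which allows a share of up to 0.0419%, at median depths of 3483.5 to 12784.5 UMIs. Since Foxp3 is part of the rule, its share of 52.4% in gated cells was set in part by the rule, and the shares in other cells are given as a description. Of the 448 Foxp3 UMIs in all cells passing the limits, 61.2% lay in the gated cells.

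The helper genes are described likewise, since their sum chose cells. Of all UMIs of each gene, 47.9% of Ctla4, 44.7% of Tnfrsf4 and 32.4% of Il2ra lay in the gated cells, and 13.2% of Ikzf2, the transcription factor Helios. A helper sum of at least 4, the limit for cells with no Foxp3, was met by 243 of the same 8059 epithelial cells (3.02%). It was met by 13 of the same 7154 macrophages (0.182%). Of the 243 epithelial cells, 163 were among the 852 of treated 3 (19.1%), and the share was 0% to 5.26% in the other 5 mice. A single helper gene was found in 22 of the 129 gated cells without Foxp3, Ikzf2 in 10 of them, Ctla4 in 8, Il2ra in 2 and Tnfrsf4 in 2. At least 2 of the 4 helper genes were found in 232 of the 271 gated cells (85.6%) and at least 3 in 161 (59.4%).

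Ikzf2 was the most abundant of the 4 in 5 of 6 mice, at 1038, 758 and 1174 CPM in treated 1, 2 and 3, against 483, 989 and 1070 CPM in vehicle 1, 2 and 3. Ctla4 stood at 516, 354 and 571 CPM in treated mice and at 284, 312 and 450 CPM in vehicle mice. Tnfrsf4 stood at 528, 270 and 327 CPM in treated mice and at 852, 345 and 570 CPM in vehicle mice. For each of these genes the groups overlapped. Il2ra was the lowest of the 4 in every mouse, at 267, 149 and 315 CPM in treated mice and 114, 278 and 390 CPM in vehicle mice. Cd4 itself was found in 105 of the 271 gated cells (38.7%), at 168 UMIs in all.

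The helper limit ran through a continuous range. Among T cells that met every other part of the rule and had no Foxp3, 33 had a helper sum of 4 and 25 a sum of 5, just inside the limit, and 37 had a sum of 3 and 61 a sum of 2, just outside it. Of 235 cells with Foxp3, 93 were not taken. Each was counted under the first part of the rule it missed, in the order CD3, C1q, Epcam, Cd8, Trdc or Tcrg-C1. By that order 34 had fewer than 2 CD3 UMIs, 9 were left out for C1q genes and 40 for Epcam. A further 9 were left out for Cd8 genes and 1 for Trdc or Tcrg-C1. A cell may also have missed a later part.

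A few gated cells held RNA of another cell type in quantity. By limits set after the cells were seen (at least 5 keratin UMIs, 20 of collagen and Sparc, 20 of macrophage genes or 50 of B cell genes), 9 of 271 gated cells were mixed and held 19.6% of the UMIs, from none in vehicle 1 and vehicle 3 to 42.4% in vehicle 2. One of them, in treated 1, held 3603 UMIs of the antibody gene Igkc. In the comparison T cells used below, 62 of 395 were mixed and held 68.6% of the UMIs. These are called mixed cells, and results are given with and without them.

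The share of regulatory T cells among cells passing the limits was higher in each treated mouse than in any vehicle mouse. It was 0.730%, 0.758% and 1.85% in treated 1, 2 and 3, against 0.503%, 0.384% and 0.271% in vehicle 1, 2 and 3. The exact 95% intervals, which cover counting error only, reached from 0.493% to 1.04% in treated 1 and from 0.251% to 0.899% in vehicle 1, and so overlapped between the nearest mice. The means were 1.11% ± 0.638 in treated and 0.386% ± 0.116 in vehicle mice (SD, n = 3 each; difference 0.726 percentage points, two-sided exact permutation p = 0.1, the smallest that 3 against 3 mice can give). Without treated 3, which held 118 of the 271 cells, the difference was 0.357 percentage points.

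Because the rule reads raw UMIs, the share was also taken after every cell had been thinned to the same depth. Cells too shallow for thinning to 1000 UMIs, 281 to 715 by treated mouse and 281 to 2253 by vehicle mouse, were left out. At 1000 UMIs per cell it averaged 0.483% ± 0.249 in treated and 0.190% ± 0.0919 in vehicle mice, and at 2000 UMIs 0.941% ± 0.463 in treated and 0.200% ± 0.0799 in vehicle mice (SD, n = 3 each; exact permutation p = 0.1 for each). At 2000 UMIs, 852 to 1525 cells by treated mouse and 674 to 4182 by vehicle mouse were too shallow, and 4, 15 and 8 gated cells were left in vehicle 1, 2 and 3. CD3-gated T cells then numbered 6, 78 and 33 in vehicle 1, 2 and 3, against 37, 196 and 195 before thinning. In treated 1, 2 and 3 they numbered 81, 90 and 258, against 109, 121 and 304. Thinning thus kept fewer of the T cells of vehicle mice, and the thinned shares still depend on library depth. With Foxp3 required and cells not thinned, the share averaged 0.617% ± 0.429 in treated and 0.195% ± 0.108 in vehicle mice (exact permutation p = 0.1). It too reads raw UMIs and so depends on depth.

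Among T cells the difference was not resolved. Regulatory T cells made up 27.5%, 33.9% and 38.8% of the 109, 121 and 304 CD3-gated T cells of treated 1, 2 and 3, against 29.7%, 20.4% and 15.9% of the 37, 196 and 195 of vehicle 1, 2 and 3. The groups overlapped through vehicle 1, and the means of 33.4% ± 5.66 in treated and 22.0% ± 7.05 in vehicle mice did not differ beyond the spread (SD, n = 3 each; two-sided exact permutation p = 0.2). Thinned to 1000 UMIs per cell they were 21.7% ± 4.48 in treated and 15.7% ± 4.03 in vehicle mice (exact p = 0.3). Thinned to 2000 UMIs the order of the means turned, to 29.2% ± 1.94 in treated and 36.7% ± 26.1 in vehicle mice (exact p = 1), with vehicle 1 resting on 4 of 6 T cells. A share of dissociated cells does not give the number of regulatory T cells in a tumour.

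**Figure D1:**
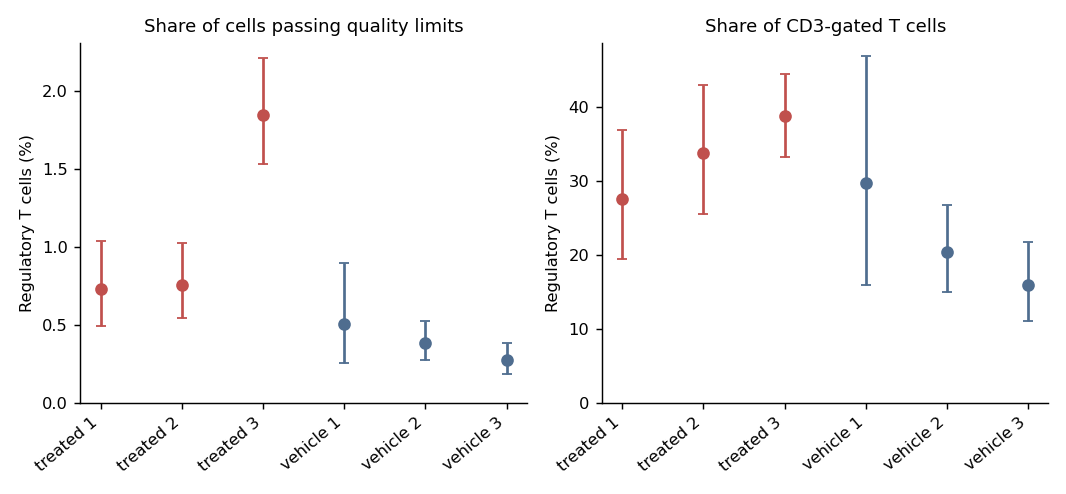
Regulatory T cells as a percentage of all cells passing the quality limits (left) and of CD3-gated T cells (right), 1 point per mouse, with exact 95% intervals that cover counting error only. On the left the treated mice sit at 0.730% to 1.85% and the vehicle mice at 0.271% to 0.503%, and on the right vehicle 1, at 29.7%, lies among the treated mice.

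What else sets these cells apart was asked against the other CD8-negative T cells of the same mouse, 395 cells that met every part of the rule except the Foxp3 and helper gene part. The 17 genes of the rule were removed before the fit, and none of them is tested. With edgeR's quasi-likelihood test and mouse as a block, 469 of 3684 genes differed at a Benjamini-Hochberg adjusted p under 0.05 (12.7%), 257 higher in regulatory T cells (6.98%) and 212 lower (5.75%). Members' median depth was above that of the comparison cells in 5 of 6 mice, the exception being vehicle 2, at 1772 UMIs against 2092. Cd3d, a T cell gene of the rule, stood at 889, 426 and 622 CPM in regulatory T cells of treated mice. It stood at 1193, 562 and 600 CPM in those of vehicle mice. In the comparison cells it stood at 127, 95.6 and 425 CPM in treated and 106, 229 and 428 CPM in vehicle mice. With all cells, a gene shared by all T cells could thus be higher in regulatory T cells, which bears on every list below.

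The 10 genes with the largest falls in that fit were genes of fibroblasts and other stromal or tumour cells, not of T cells. Postn, which codes for the matrix protein periostin, stood at 0, 0 and 3.37 CPM in the regulatory T cells of treated mice and 0, 6.77 and 0 CPM in those of vehicle mice. In the comparison cells it stood at 220, 247 and 146 CPM in treated mice and 106, 98.9 and 276 CPM in vehicle mice. The others were Cygb, Acta2, Mgp, Tagln, Timp1, Serpinf1, Aebp1, Loxl2 and Bgn. The 8 fibroblast markers summed to 55.9 to 2574 CPM in regulatory T cells and to 4989 to 9630 CPM in the comparison cells, and with mixed cells left out to 30.4 to 588 CPM in regulatory T cells and 56.9 to 776 CPM in the comparison cells. Leaving out 1 treated mouse lowered the count of genes called to 273 (without treated 1), 216 (without treated 2) and 273 (without treated 3).

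With mixed cells left out of both classes, 97 of 1432 genes differed (6.77%), 45 higher in regulatory T cells (3.14%) and 52 lower (3.63%), and 30 of these were also called with all cells. In vehicle 1 the comparison cells that remained held 41378 CPM of the neutrophil gene S100a8 and no UMI of Tcf7. With vehicle 1 left out as well, 357 of 1835 genes differed (19.5%), 157 higher (8.56%) and 200 lower (10.9%). Both settings were chosen after the data were seen. In what follows, levels are those with mixed cells left out, and fold changes are regulatory T cells over other CD8-negative T cells on the log2 scale.

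Among receptors of the TNF receptor family, Tnfrsf18 and Tnfrsf9 were higher in regulatory T cells. Tnfrsf18 (GITR; chromosome 4, 156026164 to 156028895, plus strand) stood at 686, 558 and 554 CPM in the regulatory T cells of treated 1, 2 and 3 and at 795, 788 and 670 CPM in those of vehicle 1, 2 and 3. In the comparison cells it stood at 215, 106 and 148 CPM in treated and 213, 238 and 211 CPM in vehicle mice. Every regulatory value was above every comparison value, and the log2 fold change was 1.69 ± 0.18 (SE; adjusted p = 0.000221, edgeR). Tnfrsf18 was found in 197 of the 271 cells (72.7%).

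Tnfrsf9, the receptor 4-1BB, which marks T cells activated through their receptor, stood at 170, 193 and 178 CPM in treated and 28.4, 271 and 200 CPM in vehicle regulatory T cells, against 12.0, 9.63 and 6.17 CPM in treated and 14.2, 6.11 and 8.44 CPM in vehicle comparison cells. It was higher in all 6 mice, and passed the filter for testing only without vehicle 1, where its log2 fold change was 4.46 ± 0.38 (adjusted p = 1.43e-10, edgeR). Traf1, an adaptor of these receptors, was higher by 1.04 ± 0.24 (adjusted p = 0.019, edgeR). Of the 12 genes of the TNF receptor and TRAF list, 9 could be tested with all cells, and 5 were higher and none lower (median log2 fold change 1.12). Once mixed cells were left out, 7 could be tested and 2 were higher, Tnfrsf18 and Traf1, and none lower (median 0.49).

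Among 18 identity genes outside the rule, 9 could be tested with all cells, of which 7 were higher and none lower. Their median log2 fold change was 1.48, beside a median of -0.05 over all genes tested, whether T cell genes or not. With mixed cells left out, 6 could be tested and 3 were higher, Tnfrsf18, Capg and Batf. Capg, an actin-capping protein gene, averaged 576 ± 91.1 CPM in regulatory T cells and 210 ± 124 CPM in the comparison cells (SD, n = 6 mice), and the log2 fold change was 1.35 ± 0.24 (adjusted p = 0.00505, edgeR). Batf, a transcription factor of effector regulatory T cells, averaged 213 ± 34.6 CPM in regulatory T cells and 66.1 ± 46.9 CPM in the comparison cells, with a log2 fold change of 1.54 ± 0.33 (adjusted p = 0.0123, edgeR).

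Cd4, Icos and Il2rb were called with all cells and did not hold. Cd4 was higher by 1.48 with all cells (adjusted p = 0.0127, edgeR) and its log2 fold change was -0.01 with mixed cells left out (adjusted p = 0.994), where it stood at 114 to 170 CPM in regulatory T cells and 28.4 to 197 CPM in the comparison cells. Icos, a co-stimulatory receptor, moved likewise, with a log2 fold change of 1.16 with all cells (adjusted p = 0.0362) and -0.41 with mixed cells left out (adjusted p = 0.251). Il2rb, the beta chain of the interleukin 2 receptor, had log2 fold changes of 1.85 with all cells (adjusted p = 0.0129) and 0.41 with mixed cells left out (adjusted p = 0.388).

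Of 15 genes of tissue effector regulatory T cells, 8 could be tested with all cells and 6 were higher, Klrg1, Il1rl1, Gata3, Rora, Maf and Batf, and none was lower (median log2 fold change 2.46). Without mixed cells, 5 could be tested and 2 were higher, Gata3 and Batf (median 0.26). With vehicle 1 left out as well, 8 could be tested, of which Klrg1, Il1rl1, Gata3, Batf and Tnfrsf9 were higher and the chemokine receptor gene Cxcr6 was lower (median 1.27). Klrg1 (chromosome 6, 122270596 to 122282882, minus strand), a receptor of terminally differentiated lymphocytes, stood at 88.3, 178 and 127 CPM in treated and 142, 188 and 150 CPM in vehicle regulatory T cells. In the comparison cells it stood at 0, 0 and 3.08 CPM in treated and 0, 12.2 and 25.3 CPM in vehicle mice. Every regulatory value was above every comparison value. Its log2 fold change was 5.24 ± 0.46 with all cells (adjusted p = 9.03e-05, edgeR) and 4.03 ± 0.44 with mixed cells and vehicle 1 left out (adjusted p = 1.53e-08).

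Il1rl1 codes for ST2, the interleukin 33 receptor, and was found in 80 of the 271 cells. It averaged 131 ± 105 CPM in regulatory T cells and 23.8 ± 20.5 CPM in the comparison cells (SD, n = 6 mice), was higher in 6 of 6 mice, and had a log2 fold change of 3.41 ± 0.48 with all cells (adjusted p = 0.00166, edgeR) and 2.35 ± 0.32 with mixed cells and vehicle 1 left out (adjusted p = 1.13e-06). Gata3, a transcription factor that regulatory T cells of tissues share with type 2 helper cells, averaged 234 ± 39.3 CPM in regulatory T cells and 71.3 ± 64.6 CPM in the comparison cells, with a log2 fold change of 1.39 ± 0.37 with mixed cells left out (adjusted p = 0.0386, edgeR). Rora and Maf did not hold, with log2 fold changes of 0.26 and 0.19 and adjusted p of 0.602 and 0.652 with mixed cells left out. Il1rl1, Gata3 and Areg are also on the list of markers of type 2 innate lymphoid cells. That list of 10 genes summed to 341 to 976 CPM in regulatory T cells and 28.4 to 416 CPM in the comparison cells, ranges that overlap, with Il5 at 0 in both, and its part in the result was not tested. The tumour regulatory T cell receptors Ccr8 and Tigit were scarce, at 13 and 12 UMIs over all gated cells.

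The gut-homing chemokine receptor Ccr9 (chromosome 9, 123678439 to 123784330, plus strand) was found in 123 of the 271 cells. It stood at 245, 381 and 492 CPM in treated and 284, 35.3 and 150 CPM in vehicle regulatory T cells, against 83.7, 9.63 and 61.7 CPM in treated and 14.2, 18.3 and 59.1 CPM in vehicle comparison cells, higher in 6 of 6 mice. Its log2 fold change was 3.56 ± 0.48 with all cells (adjusted p = 0.00172, edgeR) and 2.40 ± 0.34 with mixed cells and vehicle 1 left out (adjusted p = 1.64e-05). Lztfl1, which codes for a regulator of ciliary protein transport, lies within the span of Ccr9 on the other strand (123694416 to 123717697). It averaged 253 ± 73.0 CPM in regulatory T cells and 43.6 ± 30.4 CPM in the comparison cells (log2 fold change 2.48 ± 0.30, adjusted p = 0.000614, edgeR). The labels do not say whether the counting used strand, so the split of reads between the 2 genes is uncertain. Izumo1r, the folate receptor 4 gene, was also higher in 6 of 6 mice, at 87.7 ± 27.6 CPM in regulatory T cells and 36.8 ± 33.8 CPM in the comparison cells.

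Other genes among the 15 largest rises with all cells were tested again with mixed cells left out. Tent5a, which codes for a poly(A) polymerase, averaged 550 ± 259 CPM in regulatory T cells and 118 ± 84.7 CPM in the comparison cells (2.03 ± 0.34, adjusted p = 0.00484, edgeR). Gpr65, a proton-sensing receptor, averaged 155 ± 53.3 CPM in regulatory T cells and 58.5 ± 15.3 CPM in the comparison cells (1.27 ± 0.27, adjusted p = 0.0123). Rrad, a small GTPase, Ass1, an enzyme of arginine synthesis, and Ifi27l2a, an interferon-induced gene, were also higher, with log2 fold changes of 1.38, 1.48 and 1.44 and adjusted p of 0.00817, 0.01 and 0.0123. Fam129a and Gimap7 missed the threshold there, with adjusted p of 0.0541 and 0.196. Pdcd1, the inhibitory receptor PD-1, stood at 177, 137 and 140 CPM in treated and 56.8, 176 and 110 CPM in vehicle regulatory T cells, against 71.7, 0 and 49.3 CPM in treated and 71.1, 48.9 and 67.5 CPM in vehicle comparison cells, higher in 5 of 6 mice. Its log2 fold change was 2.84 ± 0.54 with all cells (adjusted p = 0.00981) and 1.48 ± 0.31 with mixed cells and vehicle 1 left out (adjusted p = 0.000606). The integrin chain Itgb1 was lower in 6 of 6 mice, at 157 ± 78.4 CPM in regulatory T cells and 313 ± 137 CPM in the comparison cells (-1.19 ± 0.20, adjusted p = 0.00356).

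Of 12 genes of resting and recirculating T cells, 5 could be tested once mixed cells were left out, and 3 were lower and none higher. With vehicle 1 also left out 8 could be tested and all 8 were lower, Tcf7, Lef1, S1pr1, Klf2, Il7r, Satb1, Bcl2 and Txk. Tcf7 (chromosome 11, 52252371 to 52283014, minus strand), the transcription factor TCF-1 of naive and memory T cells, stood at 67.9, 35.5 and 41.6 CPM in treated and 0, 118 and 0 CPM in vehicle regulatory T cells. In the comparison cells it stood at 311, 597 and 284 CPM in treated and 0, 244 and 287 CPM in vehicle mice. It was lower in 5 of 6 mice, vehicle 1 being at 0 in both, with a log2 fold change of -2.94 ± 0.43 (adjusted p = 0.00256, edgeR).

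Il7r, the interleukin 7 receptor chain that regulatory T cells carry at low levels, stood at 897, 726 and 1337 CPM in treated and 227, 1212 and 360 CPM in vehicle regulatory T cells, against 1267, 1261 and 1684 CPM in treated and 128, 1656 and 1088 CPM in vehicle comparison cells. Its log2 fold change was -0.76 ± 0.21 with mixed cells left out (adjusted p = 0.0388, edgeR) and 0.80 with all cells (adjusted p = 0.188). With all cells, 1 of 8 tested genes of this list was called, Igfbp4, a gene of stromal cells too.

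Of 26 cell cycle genes, 20 could be tested with all cells, and 3 were higher, Mki67, Top2a and Hmgb2, and none lower, with 14 above 0 and a median log2 fold change of 0.25. Without mixed cells, 8 could be tested, all 8 had log2 fold changes above 0 (median 1.42), and Top2a, Hmgb2, Stmn1 and Tubb5 passed. Top2a (chromosome 11, 98992943 to 99024189, minus strand), a topoisomerase of dividing cells, stood at 197, 203 and 231 CPM in treated and 170, 224 and 560 CPM in vehicle regulatory T cells, against 35.9, 9.63 and 43.2 CPM in treated and 114, 30.5 and 67.5 CPM in vehicle comparison cells. Its log2 fold change was 2.36 ± 0.33 (adjusted p = 0.00129, edgeR). Mki67, the proliferation marker Ki-67, averaged 253 ± 175 CPM in regulatory T cells and 25.7 ± 34.0 CPM in the comparison cells, with vehicle 1 the 1 mouse of 6 in which it was not higher. Tubb5 and Stmn1 were called only with mixed cells left out, with log2 fold changes of -0.37 and 0.06 with all cells.

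Of 13 suppressive effector genes, 6 could be tested with all cells and 3 were higher, Areg, Fgl2 and Pdcd1, and none lower. Without mixed cells, 3 could be tested and Lgals1, which codes for galectin-1, was higher, at 2111 ± 1144 CPM in regulatory T cells and 629 ± 299 CPM in the comparison cells (SD, n = 6 mice; log2 fold change 1.48 ± 0.29, adjusted p = 0.0123, edgeR). With all cells its log2 fold change was -0.47 (adjusted p = 0.072), Lgals1 being also abundant in stromal cells. Areg, the tissue-repair growth factor amphiregulin, averaged 274 ± 194 CPM in regulatory T cells and 55.8 ± 63.3 CPM in the comparison cells, was higher in 6 of 6 mice, and passed with all cells (2.15 ± 0.46, adjusted p = 0.0143, edgeR) but not with mixed cells left out (adjusted p = 0.0644). Il10 was found at 3 UMIs in all, 2 in treated 2 and 1 in treated 3.

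**Figure D2:**
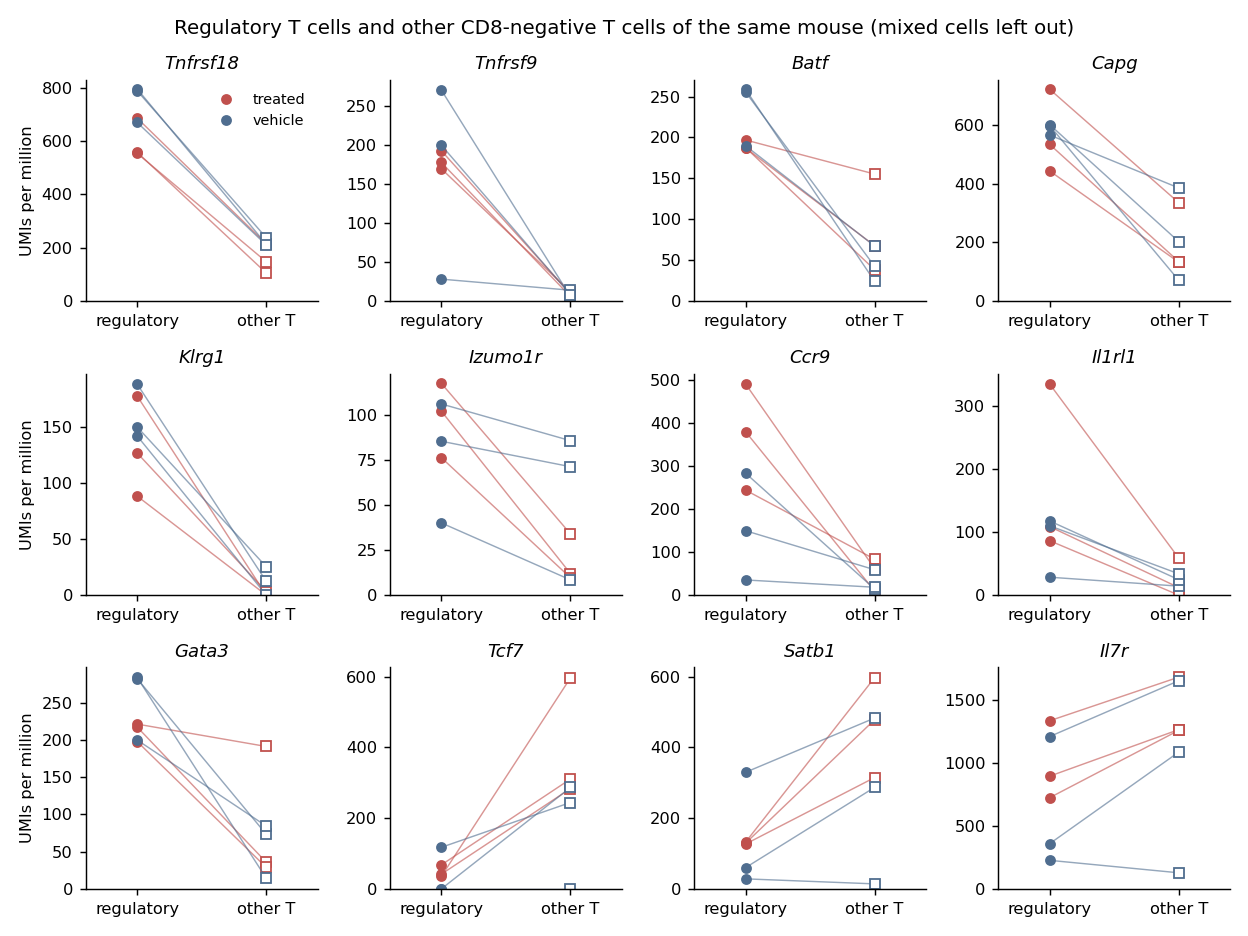
CPM of 12 genes in regulatory T cells (filled circles) and in other CD8-negative T cells of the same mouse (open squares), joined by a line per mouse, with mixed cells left out. Tnfrsf18 and Klrg1 are higher in the regulatory T cells of all 6 mice, and Tcf7 is higher in the other T cells of 5, with vehicle 1 at 0 in both.

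Genes whose UMIs lay in the gated cells to the same degree as those of Foxp3 were looked for among 19129 genes with at least 30 UMIs over all cells. Foxp3 had 61.2% of its UMIs there, and the 5 highest genes outside the rule were Ccl1 at 74.5%, Klrg1 at 61.7%, Cd160 at 51.1%, Neb at 45.0% and Kcna4 at 43.3%. Klrg1 was spread over 73 gated cells of 6 mice and Neb over 95 gated cells of 5 mice. Ccl1 and Cd160 were not: 325 of 376 Ccl1 UMIs and 40 of 45 Cd160 UMIs in gated cells came from 1 cell of treated 2. That cell also held 87 of the 102 UMIs of the cytokine gene Il17a, had no UMI of Foxp3, Ikzf2, Ctla4 or Il2ra, and entered through 9 UMIs of Tnfrsf4.

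Treatment was asked about next, within the regulatory T cells of treated and vehicle tumours, with levels from here on over all gated cells unless stated otherwise. Of 2194 genes tested in 6 mice (edgeR quasi-likelihood, Benjamini-Hochberg adjusted p under 0.05), none was higher and 2 were lower in treated mice (0.0912%), Il1b and Cxcl2, and 68 had an unadjusted p under 0.05. DESeq2 called 4, the same 2 among them, and 44 at an unadjusted p under 0.05. Leaving out 1 mouse gave 0 calls without treated 1 or vehicle 3 and 4 without vehicle 1 or vehicle 2. In data simulated from these libraries, the same fit found 6% of genes changed 2-fold and 75% of those changed 4-fold, so changes of 2-fold were mostly out of reach at this depth. For 214 of the 2194 genes (9.75%) the groups did not overlap.

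Il1b (chromosome 2, 129364570 to 129371139, minus strand), the inflammatory cytokine interleukin 1 beta, stood at 6.22, 6.21 and 23.6 CPM in treated 1, 2 and 3, against 227, 284 and 210 CPM in vehicle 1, 2 and 3. The groups did not overlap, and the log2 fold change, treated over vehicle, was -3.97 ± 0.53 (SE; adjusted p = 0.0015, edgeR). Cxcl2 (chromosome 5, 90903871 to 90905938, plus strand), a chemokine that attracts neutrophils, stood at 24.9, 9.32 and 48.8 CPM in treated mice, against 256, 312 and 520 CPM in vehicle mice, with a log2 fold change of -3.54 ± 0.53 (adjusted p = 0.00321, edgeR). Without treated 1 the adjusted p was 0.0748 for Il1b and 0.134 for Cxcl2, and without vehicle 3 it was 0.0651 and 0.26. With mixed cells left out, Il1b and Cxcl2 were again the 2 genes called of 1871 (0.107%), both lower (0.107%).

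Both genes came from few cells, and most vehicle UMIs of each lay in cells with neutrophil RNA. The 88 Il1b UMIs lay in 18 gated cells, with 39 in 1 cell of vehicle 2 that had entered through 4 UMIs of Ikzf2, and the 143 Cxcl2 UMIs in 38 cells, with 33 in 1 cell of vehicle 3. Gated cells with at least 3 UMIs of S100a8, S100a9, Csf3r, Retnlg, Cxcr2, G0s2 and Hdc together, a limit set after the data were seen, numbered 3 of 189 in treated mice and 6 of 82 in vehicle mice. They held 9 of 17 Il1b UMIs in treated mice and 67 of 71 in vehicle mice. Of Cxcl2 they held 5 of 36 UMIs in treated mice and 76 of 107 in vehicle mice.

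Without those cells, Il1b stood at 6.22, 8.35 and 8.94 CPM in treated mice and 0, 20.6 and 11.7 CPM in vehicle mice, and the groups overlapped. Cxcl2 stood at 24.9, 12.5 and 42.9 CPM in treated mice and 209, 151 and 58.6 CPM in vehicle mice, still without overlap. Neither gene then passed the filter for testing, and vehicle 1, with 8 cells left, fell out of the fit. The 8 neutrophil markers, Il1b among them, summed to 6.22, 15.5 and 77.5 CPM in the gated cells of treated mice, against 11787, 420 and 2069 CPM in those of vehicle mice. Both genes also had under 10% of their level in another cell type, and with all such genes left out no gene was called among 2168 (68 at an unadjusted p under 0.05, edgeR).

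**Figure D3:**
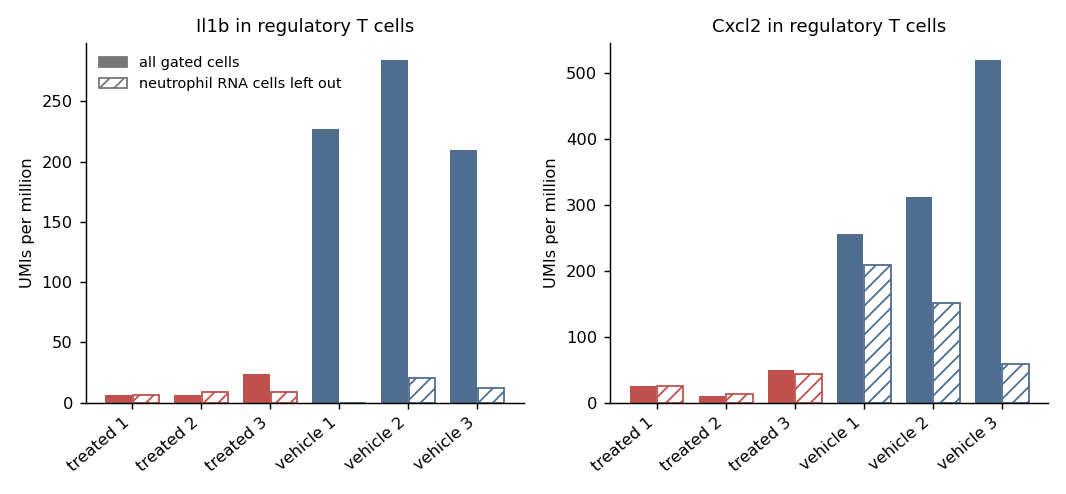
Il1b (left) and Cxcl2 (right) in the regulatory T cells of each mouse, as CPM over all gated cells (solid bars) and without the gated cells that held neutrophil RNA (hatched bars). Il1b reaches 210 to 284 in vehicle mice with all cells and 0 to 20.6 without them, and treated mice stay at 23.6 or below in both.

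No other gene passed with all cells. Among the 10 genes of smallest p with an average log2 CPM of at least 6 was Neb (chromosome 2, 52136647 to 52378474, minus strand), known for the muscle protein nebulin, at 124, 112 and 256 CPM in treated mice, against 0, 13.5 and 49.99 CPM in vehicle mice. The groups did not overlap, and the log2 fold change of 2.81 ± 0.65 missed the threshold (adjusted p = 0.229, edgeR). In vehicle mice Neb rests on 0, 2 and 5 UMIs, and regulatory T cells had median UMIs of 3685 to 4587 in treated mice and 1764 to 1782 in vehicle mice. Ccr9 stood at 224, 239 and 446 CPM in treated mice and 284, 20.3 and 150 CPM in vehicle mice, with groups that overlapped through vehicle 1 (1.33 ± 0.67, adjusted p = 0.943).

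Zfp36l2, an RNA-binding protein that shortens the life of messenger RNAs, stood at 566, 407 and 724 CPM in treated mice, against 284, 271 and 190 CPM in vehicle mice, and did not pass (1.25 ± 0.41, adjusted p = 0.943). Macf1, a linker of actin and microtubules, stood at 280, 286 and 445 CPM in treated mice, against 28.4, 169 and 160 CPM in vehicle mice, and did not pass either (adjusted p = 0.943). The other genes of smallest p, Ndufa5, Mrpl12, Tiam1, Rnf138, Cdca8, Lmo4 and Klf6, had log2 fold changes of -1.52 to 2.17.

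Gm42418 and AY036118, named here after their values were seen, are annotated as long noncoding RNA genes that overlap on opposite strands of chromosome 17. The split of reads between them is uncertain, and what their counts stand for was not tested. Their groups did not overlap. AY036118 stood at 1722, 1072 and 1504 CPM in treated mice, against 85.2, 420 and 380 CPM in vehicle mice (log2 fold change 2.24 ± 0.45, adjusted p = 0.0643, edgeR). Gm42418 held 63786, 67455 and 73661 CPM in treated mice, against 682, 12617 and 17815 CPM in vehicle mice. With the neutrophil RNA cells and so vehicle 1 left out, these 2 were the genes called among 2668 (0.075%), with log2 fold changes of 2.32 for Gm42418 and 1.93 for AY036118.

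No identity gene passed the test of treatment. Of the 18 outside the rule, 11 could be tested, none passed, and 6 had log2 fold changes above 0, with a median of 0.08 beside 0.02 over all genes. They summed to 2723, 1727 and 2570 CPM in treated 1, 2 and 3, against 2301, 2296 and 2719 CPM in vehicle 1, 2 and 3. Tnfrsf18 stood at 628, 354 and 519 CPM in treated and 795, 494 and 670 CPM in vehicle mice (-0.33 ± 0.39, adjusted p = 0.955, edgeR).

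Genes that answer T cell receptor signals lay mostly above 0. Of 12 tested, 11 did and none passed, with a median log2 fold change of 0.67. Nr4a1, an immediate reporter of receptor signalling, stood at 118, 143 and 296 CPM in treated mice and 56.8, 67.7 and 120 CPM in vehicle mice (1.23 ± 0.50, adjusted p = 0.943, edgeR). The highest vehicle value lay between the treated ones. The list summed to 4414, 3246 and 4735 CPM in treated mice and 1079, 3887 and 2689 CPM in vehicle mice, also with overlap. With mixed cells left out it summed to 4585, 3780 and 5050 CPM in treated mice and 1079, 5764 and 2689 CPM in vehicle mice. Vehicle 2 then lay highest of all mice. Fos, Jun and Ier2 on this list are among those that tissue dissociation raises.

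Cell cycle genes lay below 0 in all 12 tested, with a median log2 fold change of -0.58, and none passed. They summed to 3724, 2696 and 2784 CPM in treated mice and 5311, 2377 and 6688 CPM in vehicle mice. Vehicle 2 thus lay below every treated mouse. With mixed cells left out they summed to 4048, 3598 and 2792 CPM in treated mice and 5311, 3376 and 6688 CPM in vehicle mice. Vehicle 2 then lay above treated 3 and below treated 1 and treated 2. Over all gated cells, the groups did not overlap for Tubb5, a tubulin. It stood at 398, 370 and 374 CPM in treated mice and 710, 501 and 610 CPM in vehicle mice (-0.62 ± 0.36, adjusted p = 0.943, edgeR). With the neutrophil RNA cells left out, 14 of 17 tested cell cycle genes lay below 0.

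Genes downstream of ERK, the kinase below MEK, were scarce in these cells. Of 18, 5 could be tested, Dusp4, Dusp5, Phlda1, Ier3 and Egr1, none passed, and 2 lay above 0, with a median log2 fold change of -0.10. Dusp6, a feedback phosphatase of ERK, was found at 1, 10 and 7 UMIs in treated 1, 2 and 3. It was found at 0, 2 and 0 UMIs in vehicle 1, 2 and 3. These counts are not scaled to depth, and Dusp6 was not tested. All gated cells of treated 1, 2 and 3 held 160867, 321948 and 593690 UMIs. Those of vehicle 1, 2 and 3 held 35209, 147656 and 100027 UMIs. The 18 genes summed to 559, 1047 and 707 CPM in treated 1, 2 and 3. Their sums overlapped with those of vehicle 1, 2 and 3, at 85.2, 1443 and 570 CPM. With mixed cells left out, treated 2 stood at 462 CPM and vehicle 2 at 1200 CPM. In the simulated data given above, 4-fold changes were mostly found and 2-fold changes mostly missed. The changed genes there were drawn at random from all genes tested, so no such rate is known for these scarce genes. Of 18 autophagy genes 4 could be tested, of 22 lysosome genes 10 and of 24 cholesterol synthesis genes 2, and none passed, with medians of -0.28, 0.12 and 0.14. Sqstm1, the autophagy receptor p62 that is itself degraded by autophagy, stood at 68.4, 59.0 and 64.0 CPM in treated mice and 56.8, 67.7 and 60.0 CPM in vehicle mice, with overlap, and had too few counts for the test.

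The remaining lists held no call either. Chemokine receptors and adhesion genes lay above 0 in 7 of 7 tested (median 0.31), genes of interleukin 2 receptor chains and STAT5 targets in 9 of 9 (median 0.16) and TNF receptor and TRAF genes in 8 of 10 (median 0.37). Ccr2 stood at 87.0, 68.3 and 103 CPM in treated mice, against 0, 67.7 and 40.0 CPM in vehicle mice (0.95 ± 0.54, adjusted p = 0.943, edgeR). The groups did not overlap, with treated 2 just above vehicle 2. Ribosomal protein genes lay below 0 in 19 of 20 (median -0.29), suppressive effector genes in 3 of 7 (median 0.37), tissue effector genes in 3 of 9 (median 0.36) and resting genes in 3 of 4 (median -0.42). MHC class I genes lay below 0 in 5 of 8 (median -0.16), heat shock and dissociation genes in 6 of 9 (median -0.17) and interferon genes in 1 of 3 (median 0.87).

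**Figure D4:**
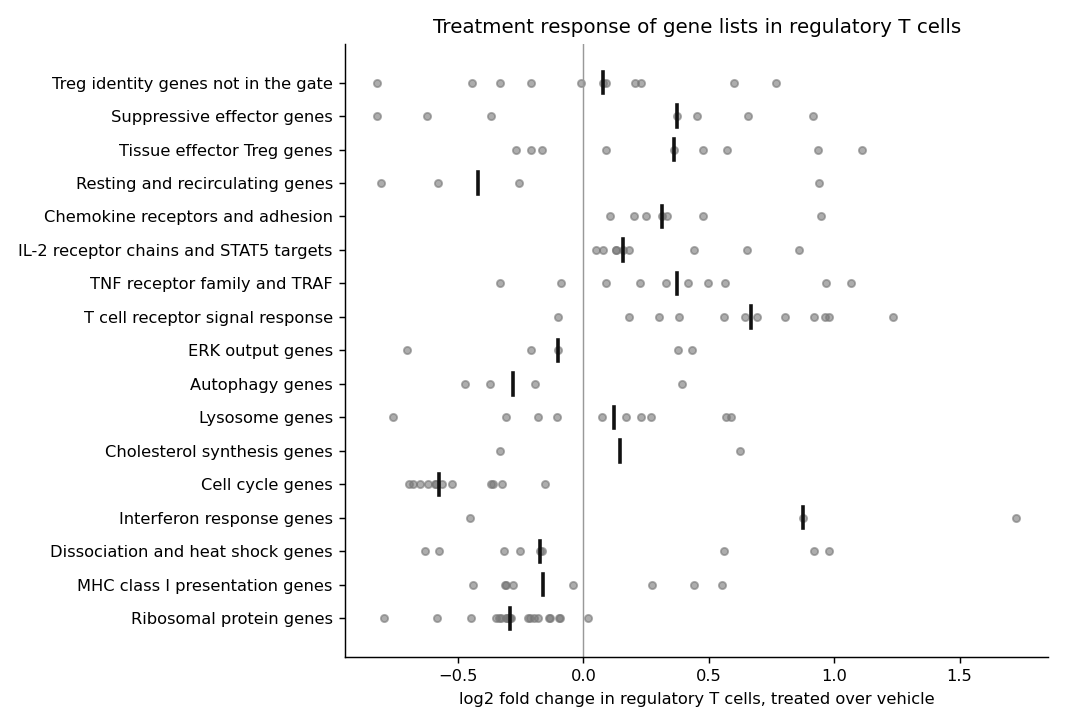
Log2 fold change, treated over vehicle, of each gene that could be tested in regulatory T cells (grey points), by gene list, with the list's median as a black bar. Cell cycle genes all lie below 0 (median -0.58) and 11 of 12 T cell receptor response genes above it (median 0.67), and no gene shown passed the test.

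Whether regulatory T cells answered treatment differently from other CD8-negative T cells was tested as a difference of the responses. None of 5060 genes passed with edgeR or with DESeq2 (0.0%), and 164 had an unadjusted edgeR p under 0.05. In simulated data this fit found 10% of genes whose response differed 4-fold. With mixed cells left out, none of 2052 passed.

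The gated cells with and without a Foxp3 UMI were compared within mice, a comparison added after the data were seen. They had a median of 4458, 4687 and 3769 UMIs with Foxp3 and 3279, 3610.5 and 3391 UMIs without it in treated 1, 2 and 3. In vehicle 1, 2 and 3 they had 1782, 2321 and 1971 UMIs with Foxp3 and 2270.5, 1697.5 and 1315.5 UMIs without it. No gene of 1071 passed (0.0%), and 93 had an unadjusted p under 0.05 (edgeR). Identity genes outside the rule summed to 2616 CPM with Foxp3 and 2050 CPM without it, against 761 CPM in other CD8-negative T cells, over all mice pooled and with mixed cells included. Without mixed cells they summed to 2301 to 3482 CPM by mouse in all regulatory T cells and 555 to 1869 CPM in the other CD8-negative T cells. Cell cycle genes summed to 4085 CPM with Foxp3 and 2070 CPM without it, and all 9 that could be tested had log2 fold changes above 0 (median 1.02).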

How the data were processed

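The authors deposited 1 matrix of raw counts (UMIs) for each mouse, with 32285 features; per the submitters' processing notes the authors used Cell Ranger 5.0.1 and build mm10. Kept were barcodes that reached 500 UMIs and 250 genes and whose mitochondrial share did not exceed 20%. The members and gene lists were chosen with earlier results of these data known. Counts of gated cells were summed per mouse (at least 10 cells, or 4 for the split by Foxp3) and tested with edgeR 4.0.16 in R 4.3.3 (TMM, filterByExpr, robust quasi-likelihood fit, Benjamini-Hochberg adjustment), with DESeq2 1.42.0 as an alternative; the fits of treatment, of regulatory against other T cells and of the difference of responses were tested on simulated data. Shares were compared by exact permutation over splits of the mice. Doublets were not removed in the main results, since Scrublet's own threshold called 0% to 0.973% of cells per library; the alternative leaves out the highest scores, 0.8% per 1000 barcodes.

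Named were called genes whose average log2 CPM reached 5, without overlap of the groups (treatment, 10 largest each way) or the same sign in every mouse (15 largest rises and 10 largest falls against other T cells); where fewer than 10 passed, the 10 smallest p at an average log2 CPM of at least 6; up to 4 members of each list that passed, or the 2 most abundant; the 5 genes most like Foxp3; and a set of genes whatever their values. Other named genes were chosen after their values were seen. Coordinates are those of GENCODE M21 on mm10, matched by identifier. Part of the mice's genotype is not reported here.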

Additional observations from a re-analysis of the deposited data

How the results depend on the processing

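Treatment calls in regulatory T cells numbered 2 in the main result, 4 with DESeq2, 17 without the filter on low counts, 4 with Foxp3 required (5 mice, vehicle 1 dropped), 0 with genes below the free RNA limit left out, 1 with treated 1 and treated 2 summed, 5 with cells thinned to 1000 UMIs (559 genes tested, vehicle 1 dropped) and 0 to 4 when 1 mouse was left out. Leaving out treated 1 or vehicle 3 gave 0, and leaving out vehicle 1 or vehicle 2 gave 4. With replicate number as a block 5 genes were called. By the measure used to look for pairing, same-numbered mice correlated at 0.135, 0.0975 and 0.111. Treated and vehicle mice of different numbers correlated at -0.2312 to 0.1215 by it. That measure is not the Pearson r over 2194 genes, which was 0.6681 to 0.8982 between treated and vehicle mice. The main fit did not pair the mice by number. Treated 3 correlated better with vehicle 2 than with its own number. Against other CD8-negative T cells, 469 genes were called in the main result, 1389 without the filter, 219 with no replicate block, 13 with Cd4 required (4 mice, vehicle 1 and vehicle 3 dropped), 97 with mixed cells left out and 216 to 630 when 1 mouse was left out. Differences of response numbered 0 in the main result, 9 without the filter, 1 with doublets left out and 0 to 2 when 1 mouse was left out. Between cells with and without Foxp3, 2 genes were called once mixed cells were left out, against 0. The share of T cells turned to -7.52 percentage points when thinned to 2000 UMIs, and leaving out 1 mouse gave 8.34 to 15.3 for it and 0.357 to 0.917 for the share of all cells. These log2 values turned sign: for Selplg, regulatory over other CD8-negative T cells, to -0.0477 with Cd4 required, -0.12 with mixed cells left out and -0.31 without vehicle 1 as well; in the same comparison Rps24 to -0.53 and -0.66 under the last 2; and, under the last, Junb to -0.0052, Hsp90aa1 to 0.44 and Rpl13 to -0.34. The cause of these moves was not tested. Settings with mixed or neutrophil RNA cells left out were chosen after seeing the data.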
